A study of Mus musculus with 12 samples.

Results

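The genes described here encode the proteins that form, move and fuse membrane vesicles: the Rab, Arf and Arl groups, the SNAREs, the sorting nexins, and the Vps, Sec, COPI and clathrin adaptor proteins. They were chosen by the form of their gene symbol, and 135 of the 6786 genes on the arrays met that form. No measured value enters the form, but the set was proposed with earlier results of these data known. A total of 169 clones stood for them, with 105 genes on 1 clone, 26 on 2 and 4 on 3. The form of a symbol also took in a few proteins with other roles, such as Vps72 of chromatin-remodelling complexes, the lipid-binding Sec14l2 and Sec14l4, and Sec11c, a signal peptidase subunit.

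RNA of the renal medulla, the inner kidney, came from 3 water-restricted and 3 control mice, with strain, age, sex and the length of restriction not given in the sources used here. Each of the 9 pairs of a restricted with a control mouse shared an array, and 3 pairs were run again with the dyes exchanged, for 12 arrays. Alexa Fluor 546 and Alexa Fluor 647 were the dyes, and 6 arrays had the restricted mouse in each. The series was made to learn what water restriction does to gene expression in this tissue. Array medians of the deposited log2 ratios ran from -0.04 to 0.06, and the SD over spots from 0.515 to 0.764, except on the array of water-restricted mouse 2 with control mouse 2, where it was 1.21.

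The sign of a ratio has no settled direction here, since the dye in the numerator is not given in the sources used here. Values were turned so that a positive one means more RNA in water-restricted mice if the ratio is Alexa Fluor 546 over 647, and less if it is the reverse. Ratios also give no level of a gene, so the presence of the medulla's defining markers could not be examined, and fewer cells of a type cannot be told apart from less RNA per cell.

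A Rab or Arf GTPase is active with GTP bound, marks the membrane it sits on and recruits motors, tethers and coats. COPII carries cargo out of the endoplasmic reticulum, COPI returns it, clathrin adaptors and retromer sort cargo at the Golgi, plasma membrane and endosomes, and SNAREs fuse the vesicle with its target. In the collecting duct of the medulla this machinery is known for moving the water channel aquaporin-2 between stored vesicles and the apical membrane under vasopressin.

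The results turn most on Rab6a, a GTPase of the Golgi, on Rab9, which acts between late endosomes and the Golgi, and on Arl14ep, a binding partner of the GTPase Arl14. These 3 were picked for display after their values were seen. Their RefSeq promoters, windows of 300 bases that span the annotated start on GRCm38.p6, are shown 5′ to 3′ on the gene's own strand. Capitals mark matches to 6 motifs searched on both strands: TGACGTCA and its shorter form TGACG (cyclic AMP response element, the shorter lying within the longer), CACGTG (E-box), TGGAAA (tonicity element core), CCAAT and GGGCGG (GC box).
Rab6a, chr7:100607336-100607635, plus strand: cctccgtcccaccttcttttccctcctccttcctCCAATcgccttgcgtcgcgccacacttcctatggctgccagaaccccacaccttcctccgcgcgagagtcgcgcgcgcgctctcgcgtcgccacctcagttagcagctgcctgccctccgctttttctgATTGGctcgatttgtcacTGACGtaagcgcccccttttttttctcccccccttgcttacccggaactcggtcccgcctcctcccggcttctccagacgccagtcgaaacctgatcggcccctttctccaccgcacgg
Rab9, chrX:166479818-166480117, minus strand: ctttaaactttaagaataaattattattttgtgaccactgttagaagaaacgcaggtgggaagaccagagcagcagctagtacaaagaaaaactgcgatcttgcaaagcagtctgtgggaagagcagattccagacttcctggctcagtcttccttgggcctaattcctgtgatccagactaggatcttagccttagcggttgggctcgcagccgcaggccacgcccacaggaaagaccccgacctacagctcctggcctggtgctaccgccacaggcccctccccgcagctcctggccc
Arl14ep, the most upstream of its 3 promoters, chr2:106974348-106974647, minus strand: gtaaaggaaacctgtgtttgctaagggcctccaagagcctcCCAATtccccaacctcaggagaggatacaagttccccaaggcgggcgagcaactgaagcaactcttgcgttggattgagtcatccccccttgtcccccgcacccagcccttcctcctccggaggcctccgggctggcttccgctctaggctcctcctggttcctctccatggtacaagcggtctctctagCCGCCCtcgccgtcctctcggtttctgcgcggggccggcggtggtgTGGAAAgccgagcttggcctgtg

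The Rab6a window held TGACG at base 182 and CCAAT at base 35 and, on the other strand, base 164. The Arl14ep window held TGGAAA at base 278, CCAAT at base 42 and the GC box, on the other strand, at base 232. None of the motifs was found in the Rab9 window. Over the 142 promoters of the 114 members in the RefSeq table, 68.3% held GGGCGG, against 35.7% of all 32851 promoters of that table. TGACG was in 38.7% against 20.8%, the full TGACGTCA in 2.82% against 1.79%, and CACGTG in 15.5% against 7.15%. The TGGAAA core (20.4% against 21.4%) and CCAAT (35.2% against 37.4%) were about as frequent in members as in all. The full table also holds promoters of genes that were not on the arrays, and a match describes letters and no binding.

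Rab6a stood apart in 1 mouse. On the 4 arrays that carried control mouse 2, the deposited log2 ratio of Rab6a was -3.42 and -3.06 with the restricted mouse in Alexa Fluor 546, and 2.78 and 2.58 with it in Alexa Fluor 647. The sign thus changed with the dye of control mouse 2, and its restricted partner was mouse 3 on both dye orientations of 1 pair, mouse 2 on 1 array and mouse 1 on 1. On the 8 arrays without that mouse, the turned value lay between -0.25 and 0.81. The 2 spots of the clone differed by at most 0.350 on any array.

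**Figure D1:**
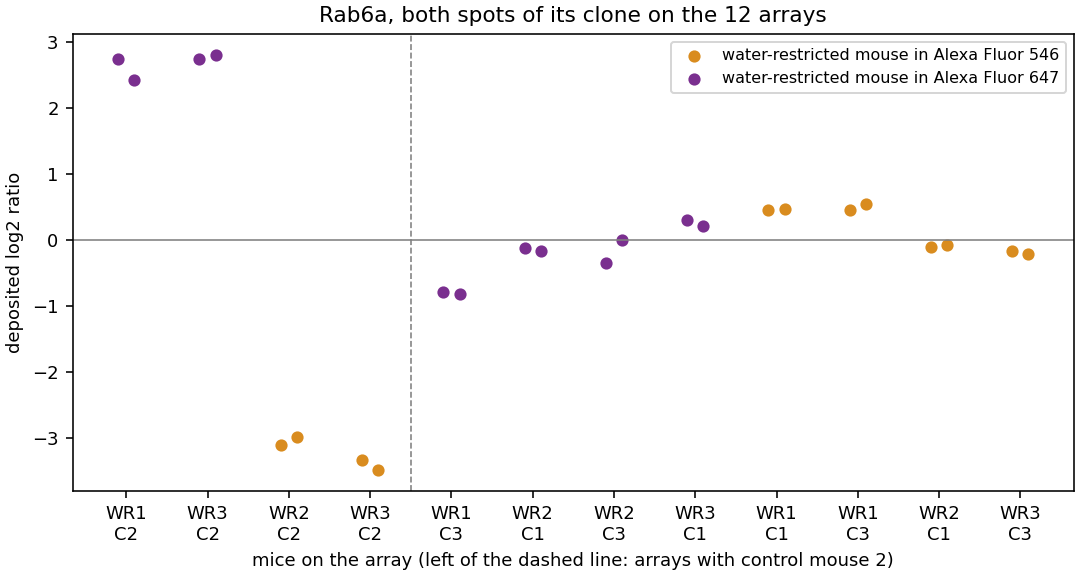
Deposited log2 ratio of Rab6a (y axis) on each of the 12 arrays (x axis, with its water-restricted, WR, and control, C, mouse), 2 points per array for the 2 spots, coloured by dye orientation. The 4 arrays left of the dashed line hold control mouse 2 and lie near 3 or -3, while the other 8 lie within 1 of 0.

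As fitted levels per mouse, in log2 units that sum to 0 over the 6 mice, Rab6a was at -0.05, -0.51 and -0.75 in water-restricted mice 1 to 3, at -0.52 and -0.65 in control mice 1 and 3, and at 2.48 in control mouse 2. Control mouse 2 therefore lay 2.97 from the mean of the other 5 mice, a 7.85-fold distance if the log base is 2. Those other 5 mice spanned 0.695. In limma's F-test of differences among mice of the same group, Rab6a had the largest F of all genes, 114 (adjusted p = 0.000151). Of all genes 24 passed that test, or 0.354%, and Rab6a was the 1 member that did. The next largest F among members was 10.4 for Stx16, a SNARE of the trans-Golgi network (limma adjusted p = 0.0863). The Rab6a call was lost when water-restricted mouse 1 (adjusted p = 0.127, distance 2.97) or control mouse 3 (adjusted p = 0.0684, distance 2.93) was left out, and with control mouse 2 left out no member passed. It was also lost when the ratios were read as already turned by the authors, where the distance was 0.27 (adjusted p = 0.624). Under that reading, the dye-exchanged arrays of restricted mouse 3 with control mouse 2 have opposite signs for Rab6a, -3.42 and 2.78.

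Because control mouse 2 sits in 1 group, it also set the group difference of Rab6a. That difference, water-restricted minus control, was -0.87 with an SE of 0.737 over 3 and 3 mice (adjusted p by limma 0.996), the farthest from 0 of any member. It was 0.15 without control mouse 2 and -0.08 with the ratios read as already turned, where Stx16 (0.76) and Sec11c (-0.66) lay farther out. A departure of over 1 from the other mice was seen in control mouse 2 for 6 members, or 4.44% against 3.76% of all genes. These were Rab6a, Rab35, Ap1m1, Copb2, Sec23ip and Stx16. Rab6a was at least 2.585 from 0 on all 4 arrays of control mouse 2. Rab35 (2.78), Copb2 (-2.48) and Sec23ip (-3.33) had a lone extreme on its array with restricted mouse 2. Ap1m1 was at 2.2 there and at 0.82, 0.14 and -0.03 on the other arrays of control mouse 2.

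Between water-restricted and control mice, 0 of the 135 members passed limma's test at an adjusted p under 0.05, and the background was 0% of all genes. The smallest adjusted p was 0.859 among members and 0.183 among all genes. At an unadjusted p under 0.05 there were 2 members, Rab9 and Arl14ep, or 1.48%, below the background of 4.97%. The members' differences were small: 88 of 135 lay within 0.2 of 0 (65.2%, against 66.7% of all genes), and the median size was 0.136 against 0.134. Their median difference was 0.02 and that of all genes 0.00, with 71 members positive (52.6% against a background of 50.7%). The SE of a member's difference ran from 0.141 to 0.737 (median 0.189). The 95% interval lay within 1 of 0, a factor of 2 in RNA at base 2, for 124 members (91.9% against 90.2%). A larger difference was thus outside the interval for most members, but smaller ones could not be resolved with 3 mice a group.

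Rab9 had the smallest p of the members. Restricted mice 1 to 3 had levels of 0.44, 0.03 and 0.22, and control mice 1 to 3 had -0.22, -0.15 and -0.31, so that the groups did not overlap. Its difference was 0.46 (SE 0.162, limma adjusted p = 0.859), with 10 of 12 arrays positive. Read as already turned it was -0.38. The orientations gave unequal values: the mean over arrays was 0.10 (SE 0.143) with the restricted mouse in Alexa Fluor 546 and 0.81 (SE 0.120) with it in Alexa Fluor 647.

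Arl14ep was the member with the smallest p on the negative side. Restricted mice had levels of -0.23, -0.19 and -0.10 and controls 0.31, 0.17 and 0.05, again without overlap. Its difference was -0.35 (SE 0.147, limma adjusted p = 0.961). All 12 arrays were negative, from -0.61 to -0.11, and both orientations gave like means, -0.40 and -0.32. Read as already turned its difference was -0.06. It was the only member with 1 sign on every array (0.741%), where the background was 2.05%.

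The levels of the 3 and 3 mice did not overlap for 8 members, or 5.93%, against a background of 9.8%. Besides Rab9 and Arl14ep these were Arl1, a Golgi GTPase, Rab11fip3, an effector of Rab11 at recycling endosomes, Rab32, a GTPase of melanosomes and mitochondria, Sec23b of the inner COPII coat, Snx4, a sorting nexin of endosomal recycling, and Vps16, a core subunit of the HOPS and CORVET tethers. Sec23b was at 0.21, 0.16 and 0.15 in water-restricted mice and 0.03, -0.32 and -0.23 in controls, a difference of 0.35 (SE 0.154). Vps16 was at -0.03, -0.12 and -0.27 against -0.01, 0.21 and 0.22, a difference of -0.27 (SE 0.153). For both genes 1 control mouse lay close to the restricted ones.

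**Figure D2:**
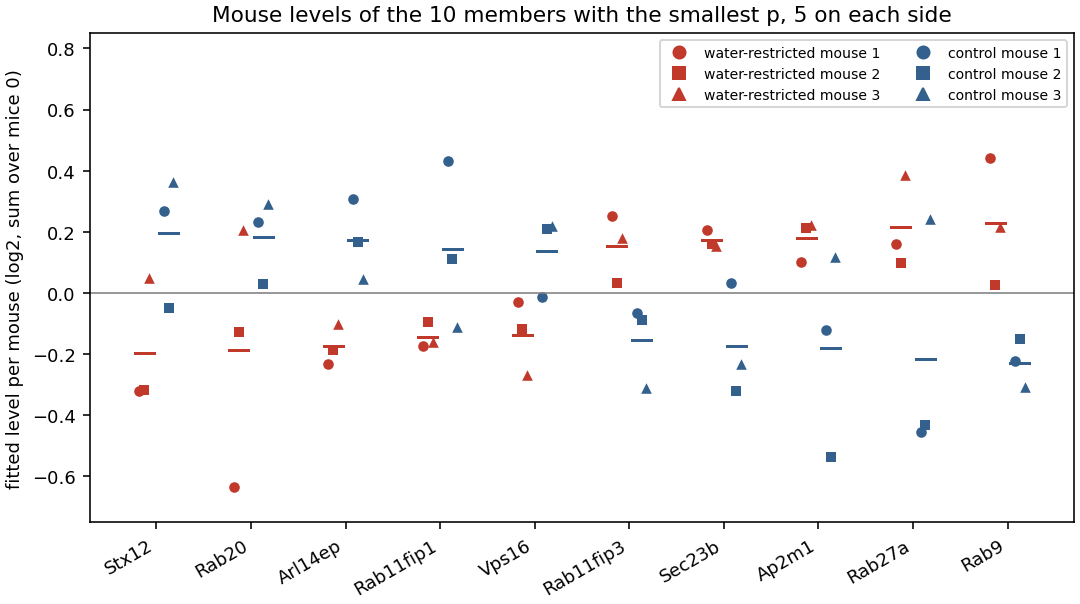
Fitted log2 level (y axis) of 10 members (x axis) in each of the 6 mice, water-restricted in red and control in blue, with a short line at each group mean; the members are the 5 with the smallest p on each side. The groups are apart for Arl14ep, Vps16, Rab11fip3, Sec23b and Rab9, and none of the 10 had a limma adjusted p under 0.859.

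Among the Rab symbols, 15 of 34 were positive, with a median of -0.04. Of these 34, 27 are GTPases (13 positive) and 7 are effectors or regulators (2 positive); these smaller groupings were drawn up after values were seen. Next to Rab9 on the positive side was Rab27a, which docks secretory granules and lysosome-related organelles at the plasma membrane. It was at 0.16, 0.10 and 0.39 in water-restricted mice and -0.46, -0.43 and 0.24 in controls, a difference of 0.43 (SE 0.217). Control mouse 3 lay among the restricted mice there. Rab35, a GTPase of endocytic recycling, had 0.51 (SE 0.326), of which 1 array carried much: 2.78 on the array of restricted mouse 2 with control mouse 2, and 0.19 for the difference without it.

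On the negative side, Rab20, an endosomal GTPase, was at -0.63, -0.13 and 0.21 in restricted mice and 0.23, 0.03 and 0.29 in controls, a difference of -0.37 (SE 0.224). The spread among the 3 restricted mice exceeded that difference. The Rab11 effectors lay on both sides. Rab11fip1 had -0.29 (SE 0.175) and Rab11fip2 -0.25 (SE 0.185), while Rab11fip3 had 0.31 (SE 0.152). Rab11a and Rab11b themselves, the GTPases of recycling endosomes, had 0.03 (SE 0.149) and 0.06 (SE 0.157). Rab5a of early endosomes had -0.06 (SE 0.162) and Rab7 of late endosomes 0.26 (SE 0.195).

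The Arf GTPases, which recruit COPI and clathrin adaptors, had 2 of 3 positive and a median of 0.00, from -0.04 for Arf3 to 0.18 (SE 0.153) for Arf4. The Arl symbols had 2 of 5 positive, from Arl14ep to Arl1 at 0.25 (SE 0.169).

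Of the SNAREs 7 of 13 were positive, with a median of 0.06. Stx12, a syntaxin of recycling endosomes, was at -0.32, -0.32 and 0.05 in restricted mice and 0.27, -0.05 and 0.36 in controls, a difference of -0.39 (SE 0.182). Its arrays were divided, 6 positive and 6 negative, so that the difference came from the larger size of the negative ones. Snap23, the broadly expressed partner of plasma membrane syntaxins, was at 0.37, 0.13 and -0.04 against -0.08, -0.33 and -0.04, a difference of 0.30 (SE 0.170). Water-restricted mouse 3 lay at the level of control mouse 3. Of 9 syntaxins 4 were positive.

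Sorting nexins, which bind endosomal phosphoinositides through a PX domain, had 9 of 17 positive and a median of 0.03. They ran from Snx6, a retromer-linked nexin, at -0.29 (SE 0.316) to Snx19 at 0.39 (SE 0.240). Snx27, which hands cargo with a PDZ-binding tail to retromer, had 0.29 (SE 0.171) with 10 of 12 arrays positive.

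The Vps genes, named after yeast vacuolar sorting mutants, had 11 of 23 positive and a median of -0.03. Of 6 subunits of the HOPS and CORVET tethers of endosomes and lysosomes, 1 was positive. Of 6 ESCRT subunits and Vps4 ATPases, which bud vesicles into endosomes, 4 were positive. Retromer and retriever, which return endosomal cargo, had 3 of 5 positive, with the retromer core Vps35 at 0.18 (SE 0.151). Vps4a, an ATPase that takes ESCRT-III apart, had 0.40 (SE 0.242) with 11 of 12 arrays positive. Its levels of 0.38, 0.37 and -0.15 in restricted mice overlapped 0.13, -0.64 and -0.09 in controls. Vps50, a subunit of an endosomal tether, had -0.33 (SE 0.396), with -3.21 on the array of restricted mouse 1 with control mouse 2, and its difference without that restricted mouse was 0.10.

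Of the Sec genes 12 of 18 were positive, with a median of 0.06. The COPII coat had 5 of 7 positive, Sec23b highest, and the translocon of the endoplasmic reticulum 4 of 5. Sec11c had the largest positive difference of all members, 0.64 (SE 0.507), with levels of -0.11, -0.24 and 1.30 in restricted mice and -1.31, 0.31 and 0.04 in controls. A single array, restricted mouse 3 with control mouse 1, was at 4.72 while the other 11 lay between -0.37 and 0.57. Without restricted mouse 3 the difference was 0.15, and without control mouse 1 it was 0.14. Sec23ip, a COPII-binding phospholipase-like protein, had -0.41 (SE 0.462), and -0.10 without the array of restricted mouse 2 with control mouse 2.

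COPI subunits had 2 of 6 positive and a median of -0.08, from Copb2 at -0.22 (SE 0.348) to Copz1 at 0.12 (SE 0.159). Copb2 was 0.07 without the array of restricted mouse 2 with control mouse 2, where its value was -2.48.

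Clathrin and related adaptors had 11 of 16 positive and a median of 0.06. AP-1, which works at the trans-Golgi network and endosomes, had 5 of 6 positive, AP-2, the adaptor of endocytosis, 4 of 4, and AP-3, which serves lysosome-related organelles, 2 of 5. The AP-2 cargo-binding subunit Ap2m1 was at 0.10, 0.21 and 0.22 in restricted mice and -0.12, -0.54 and 0.12 in controls, a difference of 0.36 (SE 0.192), with 10 of 12 arrays positive. Control mouse 2 was the low one, and without it the difference was 0.18. The other AP-2 subunits had 0.30 (Ap2s1, SE 0.285), 0.07 (Ap2a2, SE 0.227) and 0.06 (Ap2b1, SE 0.346). Ap2s1 was 0.07 without the array of restricted mouse 2 with control mouse 2, and Ap2a2 changed sign without that array. The 2 clones of Ap2a2 had -0.15 and 0.28. The lowest adaptor was Ap3s2 at -0.39 (SE 0.290).

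**Figure D3:**
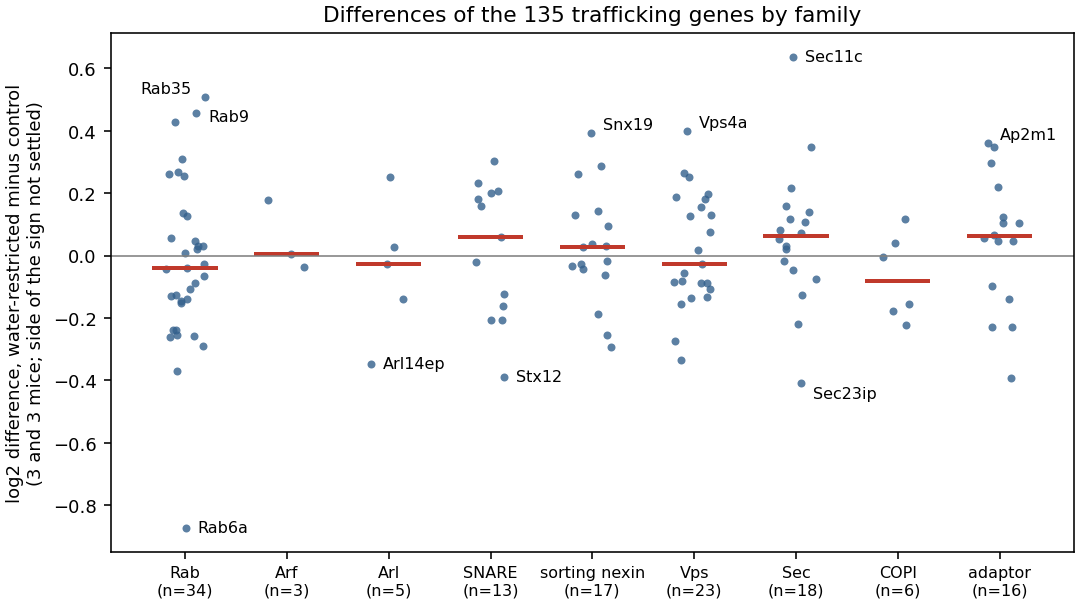
Log2 difference of each of the 135 members between water-restricted and control mice (y axis) by family (x axis), with a red line at each family's median. Every family straddles 0, with medians from -0.08 (COPI) to 0.06, and Rab6a and Sec11c lie farthest out.

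The medians of 8 of these 9 families changed sign in at least 1 of 18 other settings of the processing. The Rab median kept its sign in all 18, between -0.07 and -0.01. With no dye term, random mouse effects, the mouse number as a block or robust eBayes, every family median equalled the main one. These settings are therefore no check on a sign. The AP-2 median was 0.01 without restricted mouse 2, with 2 of 4 subunits positive. It changed sign on the arrays with Alexa Fluor 647 on the restricted mouse alone, where 1 of 4 was positive. That of HOPS and CORVET changed sign on those with Alexa Fluor 546 alone (4 of 6 positive) and when the ratios were read as already turned (5 of 6).

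Of a list of 31 genes known from aquaporin-2 traffic, 23 were measured and 16 were positive, with a median of 0.07 and 0 past the threshold between groups. A total of 18 of the 23 were members of the set, 12 positive and 6 negative. The positive members included Rab27a, Ap2m1, Snap23, Snx27, Rab7, Vamp8 and Vps35. Of the 18, 5 passed the dye test described below, which 11.3% of all genes passed: Ap2s1, Rab27a, Rab7, Stx4a and Vamp8. Means with the restricted mouse in Alexa Fluor 546 and 647 were 0.80 and -0.30 for Rab7, and 0.64 and -0.30 for Vamp8. They were 0.77 and -0.28 for Ap2s1, 0.34 and -0.61 for Stx4a, and 0.08 and 0.70 for Rab27a. Vamp8, an R-SNARE of endosomes and secretory granules, had 0.23 (SE 0.191) and 0.04 without the array of restricted mouse 2 with control mouse 2. All 4 syntaxins of the list were negative: Stx12, Stx7 of late endosomes at -0.20 (SE 0.186), and the plasma membrane syntaxins Stx4a at -0.12 (SE 0.225) and Stx3 at -0.02 (SE 0.178). Read as already turned, Stx12 was at -0.24, and the other 3 were at 0.00055 (Stx7), 0.48 (Stx4a) and 0.03 (Stx3). None of these differences passed the test.

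Other trafficking genes outside the set were taken from a list of 142, of which 92 were measured, 59 positive, with a median of 0.05. None passed limma's test between groups, 4 had an unadjusted p under 0.05 (4.35%, all genes 4.97%), and 16 passed the dye test (17.4%, all genes 11.3%). Genes of transport from the endoplasmic reticulum to the Golgi had 23 of 27 positive. Tmed7, a p24 cargo receptor of that route, had 0.45 (SE 0.152, limma adjusted p = 0.771), and Cyth3, an exchange factor for Arf6, -0.50 (SE 0.150, limma adjusted p = 0.771). Neither gene's groups overlapped. Also with the smallest p on their sides were Trappc1 of the TRAPP tether at 0.37 (SE 0.183) and Lman2, a lectin that carries glycoproteins, at 0.32 (SE 0.195). On the negative side were Arfgef1, another Arf exchange factor, at -0.47 (SE 0.154), and Use1, a SNARE of the endoplasmic reticulum, at -0.61 (SE 0.252).

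No marker of a nephron segment passed limma's test (smallest adjusted p 0.553), but the marker lists differed in sign. Of 30 proximal tubule markers 7 were measured and 6 were positive, with a median difference of 1.05 and mean levels of 0.36 to 0.55 in the restricted mice and -0.85 to 0.16 in the controls. All 7 measured of 16 principal cell markers were negative, with a median of -0.43 and mean levels of -0.31 to -0.19 against 0.17 to 0.38. For intercalated cells 2 of 10 were measured, for endothelium 1 of 10, for leukocytes 1 of 8, for interstitium 8 of 8 (3 positive) and for the thick ascending limb 0 of 7. Read as already turned, the medians were -0.02 for proximal tubule and 0.06 for principal cells. As turned here, both medians were farther from 0 than any family median above, and their part in the members' values was not tested.

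The dye effect, which is the part of a ratio that stays with the dye whichever mouse it labels, passed limma's test for 20 of 135 members (14.8%), against a background of 11.3%. No member passed when any 1 mouse was left out, and only 0% to 0.162% of all genes did. The effect was positive for 14 of these members (10.4%), where the background was 8.31%. The smallest p values belonged to Sec13, a COPII outer coat subunit, with an effect of 0.55 (limma adjusted p = 0.012), to Stx16 with 0.76 (adjusted p = 0.017) and to Rab21, an early endosomal GTPase, with -0.43 (adjusted p = 0.021). Sec13 thus had a mean of 0.66 where Alexa Fluor 546 labelled the restricted mouse and -0.48 on the others, and Rab21 -0.31 and 0.51. Sec13's difference between groups, for which the dye is taken out, was 0.08 (SE 0.141). With the ratios read as already turned, a gene's group difference is the same number as this dye effect, such as -0.38 for Rab9. Rab9, Rab27a, Sec23b and Rab11fip3, all named above for their group differences, were also among the 20. The mean had the same sign in both orientations for 57 members (42.2%), against 47.7% of all genes.

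**Figure D4:**
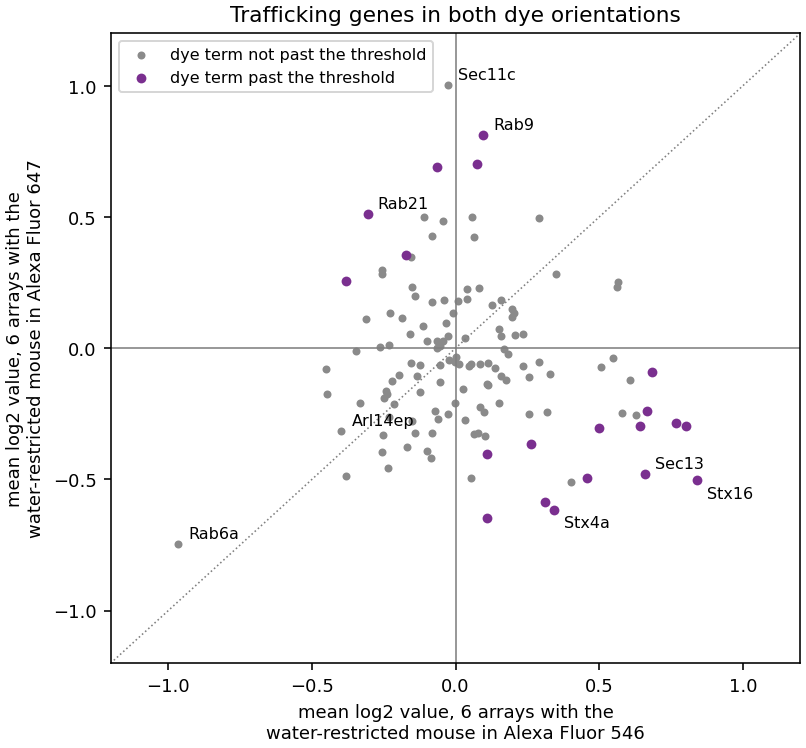
Mean turned log2 value of each of the 135 members where Alexa Fluor 647 labelled the restricted mouse (6 arrays, y axis) against those where Alexa Fluor 546 did (6 arrays, x axis), with the 20 members past the threshold of the dye effect in purple. Arl14ep and Rab6a lie near the dotted line of equal values, while Sec13, Stx16 and Rab21 have opposite signs in the 2 orientations.

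Extreme levels and values were also counted per mouse and array. Control mouse 2 had the lowest level of the 6 mice for 46 members (34.1%, against 26.3% of all genes). It had the highest for 18 (13.3%, against 17.8% of all genes). Control mouse 1 had the highest for 29 (21.5%; 14.5% of all genes). The array of restricted mouse 2 with control mouse 2 held the value farthest from 0 for 36 members (26.7%), near the 27.6% of all genes. The array of restricted mouse 3 with control mouse 1 did so for 22 (16.3%; 11.4% of all genes).

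Clones of 1 gene could be compared for 30 members. For 15 of them the clones' differences lay on 1 side of 0. Most of the 30 had 2 clones, whose signs often match at random, and no share over all genes was taken. The count is thus no measure of agreement between clones. The range over clones had a median of 0.219. It was smallest for Vps33a, a HOPS subunit, at 0.0241 and largest for Rab8a, a GTPase of transport to the plasma membrane and cilium, whose clones had -0.57 and 0.36. Copg1 of COPI had -0.53 and 0.17. Among the members with the most clones, the mean differences were 0.12 for Copz1, -0.09 for Vps26c of retriever, -0.15 for Vps41 of HOPS, -0.02 for Stx3 and, with 2 clones, 0.12 for Ap1g1 of AP-1. The median residual SD between arrays was 0.286 for members and 0.294 for all genes.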

How the data were processed

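Log2 ratios of amplified renal medulla RNA from 3 water-restricted and 3 control mice were used, 1 per spot and array, for 31200 spots on 12 two-channel arrays. The authors deposited these log2 ratios; no source used here gives the scanner signals, background correction, normalization or numerator dye. That the base is 2 was read from the values. Depth does not apply, and the number of arrays limits the precision. Spots were averaged to 15600 clones, and 9191 clones with 1 gene in the platform annotation to 6786 genes. Of the other clones 254 had several genes and 6155 none. The symbols of 9085 clones were looked up in a RefSeq table (GRCm38.p6), which changed no member's symbol.

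Arrays with the restricted mouse in Alexa Fluor 647 had their sign changed. Per gene, weighted least squares gave 6 mouse levels and a dye term, with arrays of exchanged pairs at weight 0.5. On deposited values those pairs correlated over clones at -0.136, 0.130 and -0.133, which are small values. For Rab6a the exchanged pair of restricted mouse 3 with control mouse 2 had -3.42 and 2.78. Between mice of a group 24 genes passed with the turning and 0 with the ratios read as already turned. Levels were compared 3 against 3 with limma 3.58.1 (R 4.3.3; lmFit, eBayes), and mice of a group and the dye term on the arrays, with Benjamini-Hochberg adjustment over all genes and a threshold of 0.05. Array noise enters both groups, so the first test is somewhat strict; nothing in the labels says more of the mice than their numbers. The procedure was tested on simulated data.

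The members and lists were chosen with earlier results of these data known. Genes named are the 5 with the smallest p per side, those differing between mice, the 3 with the strongest dye effect, the 5 with most clones, the extremes of each family, members of the aquaporin-2 list, and 3 other trafficking genes per side; Rab32, Snx4, Rab8a, Vps33a, Copg1 and Ap1m1 were named after their values were seen. Alternatives were centring, scaling, weights, no dye term, 1 orientation, the mouse number as a block, random mouse effects, robust eBayes, another threshold, the median over clones, already turned ratios, and leaving out 1 array or each mouse.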

Additional observations from a re-analysis of the deposited data

Results flagged for a closer look

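Within each dye orientation, the 6 arrays were searched for a lone extreme value by Dixon's ratio at the 95% level, for each of the 45 members chosen by the naming rule. Of 90 such groups 15 held one (16.7%). Chance gives about 1 in 20, but that rate is no measure here, since some of the 45 were named for extreme values and arrays share mice. Over all genes 13% of groups held one, and over the 90 members outside the naming rule 13.3%. The array of water-restricted mouse 2 with control mouse 2 held 6 of them. On it Ap2m1 was at 1.13 (others 0.10 to 0.34), Ap2s1 at 2.42 (0.14 to 0.76), Copb2 at -2.48 (-0.04 to 0.51), Rab35 at 2.78 (-0.14 to 0.24), Sec23ip at -3.33 (-0.27 to 1.25) and Vamp8 at 1.84 (0.35 to 0.47).

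The array of restricted mouse 3 with control mouse 1 held 4. On it Sec11c was at 4.72 (others 0.03 to 0.57), Rab21 at 1.16 (0.25 to 0.54), Rab20 at 0.49 (-0.95 to -0.49) and Stx4a at 0.43 (-1.12 to -0.59). The array of restricted mouse 1 with control mouse 2 had Vps50 at -3.21 (-0.00 to 0.60) and Ap2a2 at -0.94 (0.02 to 0.32). The other 3 were Rab27a at -0.61 for restricted mouse 1 with control mouse 3 (0.02 to 0.40), Stx12 at -1.14 for restricted mouse 2 with control mouse 3 (-0.07 to 0.34) and Vps35 at -0.21 for restricted mouse 2 with control mouse 1 (0.14 to 0.30). What made these values stand apart was not tested.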

How the results depend on the processing

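No setting that used both dye orientations called a member between the groups. With the restricted mouse in Alexa Fluor 647 only, where arrays serve as replicates, 6 members (4.44%) and 461 genes (6.79%) passed. These members were Ap3b1, Rab27a, Rab9, Sec23b, Snap23 and Vps35l. With the restricted mouse in Alexa Fluor 546 only, 0 members and 73 genes (1.08%) passed. Random mouse effects called 0 members and 54 genes (0.796%). At an unadjusted p under 0.05 there were 14 members (10.4%, all genes 18.9%) with Alexa Fluor 546 only and 35 (25.9%, all 23.8%) with 647 only. There were 8 (5.93%, all 9.74%) with random mouse effects and 10 (7.41%, all 5.35%) when read as already turned. Without each mouse there were 0 to 4 (0% to 2.96%, all 2.15% to 4.48%). Members differing between mice of a group numbered 2 (1.48%, all 2.92%) without the array of restricted mouse 2 with control mouse 2 (Rab6a, Vps28). They numbered 0 (all 0%) when read as already turned and 4 (2.96%, all 2.51%) at a threshold of 0.1. When each mouse was left out in turn, they numbered 0 to 1 (0% to 0.741%, all 0% to 0.427%). Dye calls numbered 12 (8.89%, all 6.62%) with equal weights and 31 (23%, all 19.2%) at a threshold of 0.1. They numbered 0 (all 0% to 0.162%) when any mouse was left out. Read as already turned, they numbered 5 (3.7%, all 7.6%). The dye term is then the group difference of the main fit, tested on the arrays and not on the mice. The members' median ran from -0.01 to 0.06 without each mouse.

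Of the 45 named differences 26 changed sign when the ratios were read as already turned, among them 6 of the 10 with the smallest p: Rab9 (-0.38), Sec23b (-0.38), Rab27a (-0.33), Vps16 (0.17), Rab11fip1 (0.046) and Rab20 (0.019). Under that reading a gene's difference is its dye effect in the main fit, so these changes are no check on the group difference. With Alexa Fluor 647 only, 10 of the 45 changed sign, including 1 with a smallest p, Rab11fip3 (-0.092). With Alexa Fluor 546 only, 11 did, including 1 such, Sec23b (-0.064). The cause was not tested. Of 45 named differences 7 kept 1 sign in all 17 settings. Among these settings, no dye term, random mouse effects and the mouse number as a block changed none of the 45 signs and left every family median as it was. Deviations of same-numbered mice from their group means correlated over genes at -0.01, -0.54 and -0.11. Same-numbered mice share an array, whose error moves their levels apart, so these values cannot settle whether the numbers pair the mice. With the number as a replicate block 0 members passed and 1 (0.741%, all 3.83%) had an unadjusted p under 0.05.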
